A study of Drosophila melanogaster with 3 samples.

Results

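Chromatin carrying the GFP-tagged product of CG4318 was examined at 10 autophagy genes of Drosophila melanogaster, Atg1, Atg2, Atg3, Atg5, Atg7, Atg8a, Atg9, Atg13, Atg17 and Atg18a. They were taken as a named list from the 13945 protein-coding genes on the 6 chromosome arms that carry peaks. A reproducible ChIP-seq peak was assigned to a gene when its summit lay in the gene body or within 2 kb of it in the Ensembl BDGP6 gene models. By that rule 6 of the 10 genes held 11 of the 5056 reproducible peaks.

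The 3 samples were biological replicates of a single group. Each was whole prepupae, males and females pooled, of a transgenic line that stably expresses CG4318 with GFP at its C terminus, and chromatin was precipitated with an antibody against GFP. The labels do not say which promoter drives the tagged gene or which cells express it, and their age entry, in days beyond any prepupal life, was not used. A control experiment named in the labels was not analysed here, and the files hold no read counts, so sequencing depth is unknown.

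Autophagy encloses cytoplasm in a double membrane and delivers it to the lysosome. The Atg1 kinase complex starts the process, Atg9, Atg2 and Atg18a supply and shape the growing membrane, and ubiquitin-like conjugation by Atg7, Atg3 and the Atg5 complex joins Atg8a to membrane lipid. In Drosophila the steroid ecdysone induces autophagy at metamorphosis, in tissues such as fat body, midgut and salivary gland. Prepupae are at the start of metamorphosis.

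The strongest sites at these genes, and the strongest one in Atg1 that all 3 replicates listed, have the following sequences at their summits. Each is the reference sequence in build dm6, written 5′ to 3′ in the direction of the gene, with its longest uninterrupted run of A and T in capitals. The first 4 are promoter sites, the next 2 are those of Atg5 outside its promoter, and the last lies in an intron of Atg1.
Atg17, chr3R:5669398-5669498, plus strand: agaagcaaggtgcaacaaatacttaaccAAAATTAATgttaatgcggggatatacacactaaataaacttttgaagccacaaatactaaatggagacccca
Atg2, chr3L:2774022-2774122, plus strand: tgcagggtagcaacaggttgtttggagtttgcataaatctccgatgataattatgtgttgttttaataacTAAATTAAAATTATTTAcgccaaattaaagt
Atg18a, chr3L:8186823-8186856, plus strand: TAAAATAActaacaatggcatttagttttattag
Atg8a, chrX:10767366-10767466, minus strand: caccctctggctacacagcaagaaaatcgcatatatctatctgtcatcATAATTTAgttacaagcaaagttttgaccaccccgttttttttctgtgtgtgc
Atg5 upstream, chrX:7324947-7325047, minus strand: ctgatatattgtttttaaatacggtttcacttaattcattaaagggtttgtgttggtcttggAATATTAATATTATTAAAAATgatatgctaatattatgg
Atg5 intron, chrX:7319253-7319353, minus strand: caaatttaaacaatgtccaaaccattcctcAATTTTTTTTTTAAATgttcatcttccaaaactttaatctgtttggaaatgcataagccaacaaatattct
Atg1 intron, chr3L:12802622-12802722, minus strand: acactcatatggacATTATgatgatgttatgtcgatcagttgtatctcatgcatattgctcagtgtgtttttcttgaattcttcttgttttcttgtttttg

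These windows reach from 50 bp before to 50 bp after the summit, except at Atg18a. There the sequence is the 34 bp just before its 5′-most transcription start site (TSS), because the other 67 bp are untranslated exon sequence and are not shown. Over all 11 autophagy gene peaks the longest run of A and T had a median of 8 bp, below the 10 bp of all reproducible summit windows. Among the sequences shown it was 21 bp at the upstream site of Atg5, 17 bp at Atg2 and 16 bp at the intronic site of Atg5. It was 9 bp at Atg17, 8 bp at Atg8a and in the shortened sequence of Atg18a, and 5 bp at Atg1.

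The signal score is the value that the authors' peak caller gave to each region, on a scale the files do not state, and it was used only within a list. There are 30000 candidate regions in the list of every replicate, and as many in the list made from the pooled replicates. The reproducible peaks are regions of the pooled list, with the same positions and scores, so a rank in the reproducible list is also the rank in the pooled list. Replicate 3 stood apart from the others: its candidates overlapped 83.6% of reproducible peaks, against 99.6% for replicate 1 and 99.8% for replicate 2.

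**Figure D1:**
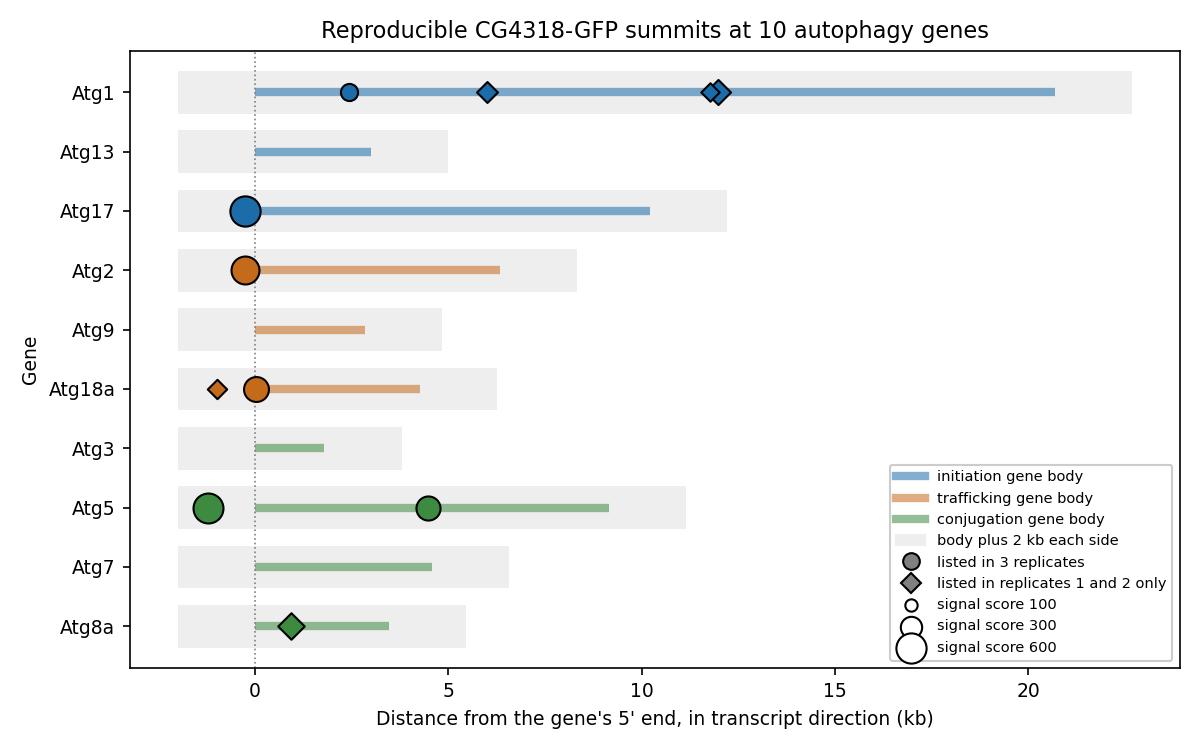
Reproducible summits at the 10 genes, plotted by distance from each gene's 5′ end in kb, with bars for gene bodies, grey bands for the body plus 2 kb, and symbol area proportional to the signal score. Circles mark the 6 peaks listed in 3 replicates and diamonds the 5 listed only in replicates 1 and 2, and no symbol falls on Atg13, Atg9, Atg3 or Atg7.

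The 6 genes with a reproducible summit were Atg1, Atg2, Atg5, Atg8a, Atg17 and Atg18a. Over all protein-coding genes 21.8% met the same rule. Long genes meet it more often, at 55.7% of genes of 10 kb or more, 30.0% of those of 5 to 10 kb, 19.5% of those of 2.5 to 5 kb and 12.3% of shorter ones. Both autophagy genes of 10 kb or more held a summit, as did both of 5 to 10 kb, 2 of the 5 between 2.5 and 5 kb, and not the single shorter gene. Their count was therefore above the whole-genome share, and their median span of 4420.5 bp was also above the 2166 bp of all genes. No test was made of this count, because the genes were chosen with earlier results of these data known.

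A summit lay within 500 bp of a TSS, here called a promoter summit, at 4 of the 10 genes, against 9.4% of all protein-coding genes. These were Atg17, Atg2, Atg18a and Atg8a. The signal scores of the 11 peaks ran from 111.9 to 602.2 with a median of 231.5, and 8 of them exceeded the 193.3 that is the median of all reproducible peaks. Of these 8, an Atg1 peak with a score of 193.4 lay practically at that median.

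**Figure D2:**
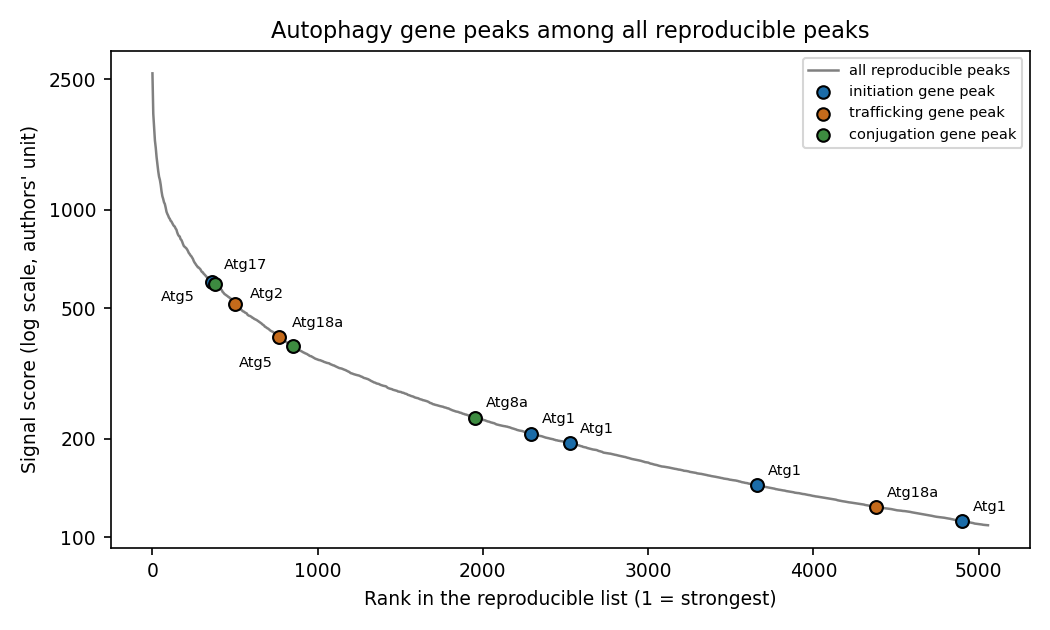
Signal score on a log axis against rank for all reproducible peaks (grey line), with the 11 autophagy gene peaks as points coloured by role. The peaks of Atg17 and Atg2, both of Atg5 and the promoter peak of Atg18a lie in the first 1000 ranks, and the 4 peaks of Atg1 lie from rank 2292 down to 4899.

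The initiation complex gave the strongest site and also the weakest. Atg17, whose product is the Drosophila counterpart of the mammalian scaffold FIP200, had a single peak on 3R from 5669295 to 5669563 with its summit at 5669448, 265 bp upstream of its TSS. Its score was 602.2, rank 360. The overlapping regions ranked 441 in replicate 1, 426 in replicate 2 and 279 in replicate 3, and their summits lay 13, 5 and 4 bp from the reproducible one. All 3 replicates thus placed the same strong site before this gene, and the plus-strand sequence shown for Atg17 is its centre.

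Atg1, the kinase that starts autophagy, had 4 peaks, all in introns of its 20688 bp body on the minus strand of 3L, and no promoter summit. From the 5′ end they lay 2444, 5995, 11764 and 11973 bp downstream of its TSS, with scores of 193.4, 144.1, 111.9 and 206.8. Of genes of 10 kb or more, 16.7% held at least 4 reproducible peaks. The last 2 Atg1 peaks overlap each other and lie also in an intron of CG42709, whose TSS is nearer to them than that of Atg1, at 2134 and 1925 bp.

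Support for the Atg1 peaks differed between replicates. The peak at 2444 bp ranked 2824, 2511 and 3714 in replicates 1, 2 and 3. The peak at 11973 bp ranked 2662 in replicate 1 and 2357 in replicate 2 and had no region in replicate 3. At 5995 bp the ranks were 6578 and 2993, and at 11764 bp they were 6007 and 5354, again with no region in replicate 3. Only the peak nearest to the Atg1 TSS was therefore listed in all 3 replicates, and the weakest, of rank 4899, was close to the end of the reproducible list.

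Atg13, the regulatory subunit that binds Atg1, had no reproducible summit within 2 kb. The nearest, at 8355182 on 3R with a score of 665.0 and rank 282, lay 2365 bp beyond the end of the gene, just outside the window. Its nearest TSS was that of stck. A weaker pooled candidate fell inside the window, 4736 bp downstream of the Atg13 TSS and past its 3′ end, with a score of 86.1 and rank 6438. Replicates 1 and 2 listed it at ranks 9545 and 6563, and replicate 3 listed no region within 2 kb of Atg13. Replicate 2 alone also listed a weak region in the Atg13 coding sequence, 1844 bp downstream of the TSS at rank 17665, which the pooled list lacked.

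Among the genes that supply and shape membrane, Atg2 and Atg18a had promoter peaks. Atg2, which moves lipid into the growing membrane, had a peak on 3L from 2773979 to 2774183 with its summit at 2774072, 266 bp upstream of its TSS, and a score of 514.6 at rank 503. The replicate regions ranked 677, 523 and 388, with summits 24, 18 and 22 bp away. As at Atg17, every replicate listed it among its first 1000 regions.

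Atg18a, which binds a phosphoinositide on the membrane, had its summit at 8186873 on 3L, 16 bp downstream of its 5′-most TSS. Only 1 of its 7 transcripts spans the summit, which lies in the 5′ untranslated exon of that transcript. The score was 408.5 at rank 767, and the replicate ranks were 1006, 793 and 672. This was the member summit closest to an annotated TSS of its own gene. A second and weaker peak, with a score of 123.6 at rank 4381, lay 994 bp upstream of Atg18a in an intron of the nuclear receptor gene ERR, 193 bp from one of the ERR start sites. It ranked 5390 in replicate 1 and 6502 in replicate 2 and had no region in replicate 3.

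Atg9, the transmembrane protein of the vesicles that seed the membrane, had no reproducible summit within 2 kb and no pooled candidate there. The nearest reproducible summit was 3940 bp from the gene, with a score of 421.0 and rank 735, and its nearest TSS was that of Nox. Even so, replicate 1 listed a region 79 bp upstream of the Atg9 TSS at rank 2657 and replicate 2 one at 154 bp at rank 2701. Both are among the 5056 strongest of their replicate, here called its top list. Replicate 3 listed no region there. Regions of this kind, in the promoter top lists of replicates 1 and 2 and missing from the pooled list, were found at 2.34% of protein-coding genes.

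Of the conjugation genes, Atg5 and Atg8a had reproducible summits and Atg3 and Atg7 had none. Atg5, which is joined to Atg12 and helps to attach Atg8a to lipid, had 2 strong peaks on X and no promoter summit. The stronger, with its summit at 7324997 and a score of 591.2 at rank 380, lay 1227 bp upstream of the Atg5 TSS, in introns of Dok and of CG1677. The Dok TSS was nearer, at 783 bp. In the replicates it ranked 319, 438 and 424.

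The other Atg5 peak, with its summit at 7319303, lay 4467 bp downstream of the TSS in the introns of Atg5 and of CG1677. Its score was 382.4 at rank 854, and the replicate ranks were 741, 1044 and 949. Both Atg5 peaks were thus listed at similar ranks by every replicate, and both lie within the span of a second gene.

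At the Atg5 TSS itself the pooled list held only a weak candidate, 346 bp upstream, with a score of 65.3 at rank 8717.

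Atg8a, the ubiquitin-like protein that coats the autophagosome, had its peak on X, at 10767416, where the score was 231.5 and the rank 1955. It lay 110 bp upstream of the middle of the gene's 3 start sites and in an intron of the transcript that starts farthest upstream. Replicates 1 and 2 listed it at ranks 1535 and 2319, and replicate 3 had no region there. Atg8a was the single promoter site of the 4 that replicate 3 did not list.

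Atg7, the E1-like activating enzyme, and Atg3, the E2-like enzyme, had no reproducible summit and no pooled candidate within 2 kb. Their nearest reproducible summits were 22160 bp away for Atg7 and 6176 bp away for Atg3. The summit near Atg3, with a score of 247.4 at rank 1788, had the Atg3 TSS as its nearest but lay outside the window. Replicate 1 alone listed a region at either promoter. It lay 157 bp upstream of Atg7 at rank 3942 and 189 bp upstream of Atg3 at rank 8039, so that only the first was in the replicate's top list.

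Counted together, 2 of the 3 initiation genes, 2 of the 4 conjugation genes and 2 of the 3 membrane genes held a reproducible summit, against 21.8% of all genes. Promoter summits were found at 1, 1 and 2 of them, against 9.4%. The groups differ in median span, which was 10218 bp for the initiation genes, 4020 bp for the conjugation genes and 4262 bp for the membrane genes. At those median lengths the shares of all genes with a summit were 55.7% from 10 kb up and 19.5% between 2.5 and 5 kb. Some genes lie outside the length class of their group's median. Atg13 spans 3003 bp (share 19.5%), Atg3 1797 bp (12.3%), and Atg5 9149 bp and Atg2 6340 bp (both 30.0%). These shares are therefore no matched reference for a whole group. The initiation genes held 5 peaks with a median score of 193.4, from 111.9 to 602.2, the conjugation genes 3 with a median of 382.4, from 231.5 to 591.2, and the membrane genes 3 with a median of 408.5, from 123.6 to 514.6. The ranges of all 3 groups overlap, and the low median of the initiation genes rests on the 4 intronic peaks of Atg1. The initiation and conjugation genes had equal counts, 2 and 2, in groups of 3 and 4 genes. With so few genes a single gene changes either share, and no difference between the groups was tested.

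Candidate lists of single replicates were compared at the promoters as well. Promoter regions of the top lists were found at 6 of the 10 genes in replicate 1, at 5 in replicate 2 and at 3 in replicate 3. The shares over all protein-coding genes were 12.5%, 12.8% and 6.88%. Atg17, Atg2 and Atg18a were the 3 genes with such a region in every replicate. Replicates 1 and 2 added Atg8a and Atg9, and replicate 1 added Atg7.

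**Figure D3:**
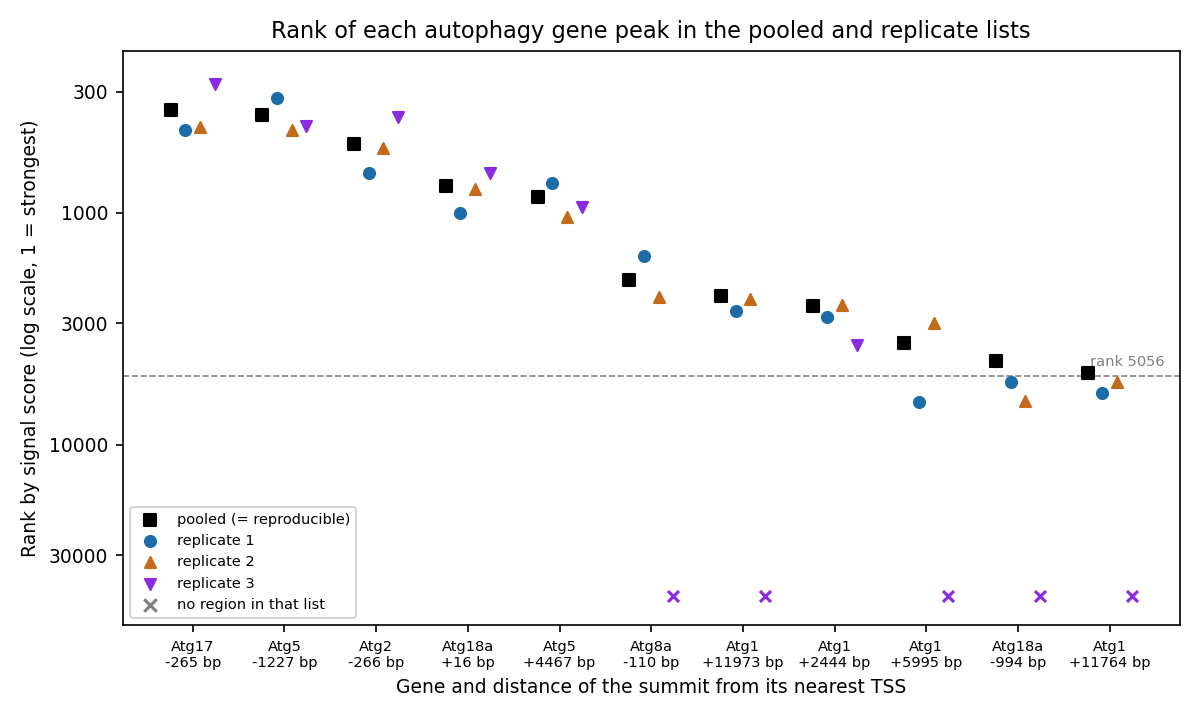
Rank by signal score (log axis, strongest at the top) of each of the 11 peaks in the pooled list and of the region with the nearest summit in each replicate's list, with crosses where a list has no overlapping region. The 5 strongest peaks lie between ranks 279 and 1044 in every list, and the crosses all belong to replicate 3.

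Of the 11 peaks, 6 were overlapped by at least 1 bp by a candidate of each replicate, against 83.2% of all reproducible peaks. The other 5 were listed in replicates 1 and 2 and not in replicate 3, a pattern shown by 16.2% of all reproducible peaks. All 5 autophagy gene peaks of ranks 1 to 1000 were listed in 3 replicates, against 83.4% of all peaks of those ranks. Below rank 1000 it was 1 of 6 peaks, against 83.1%. Over all peaks the share therefore hardly varied with rank, whereas the autophagy gene peaks missing from replicate 3 were all weaker ones. Of those 6 weaker peaks, 4 lie in Atg1 and 2 of these overlap, so they are not separate observations.

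The promoter summits of Atg17, Atg2 and Atg18a also lay near start sites of neighbouring genes, and that of Atg8a did not. The summit before Atg17 lay between its TSS and that of Xe7, which runs in the opposite direction 379 bp away, and was nearer to Xe7, at 114 bp. Likewise the summit before Atg2 lay between its TSS and that of CG12093, 331 bp away on the opposite strand, and was 65 bp from CG12093. The promoter summit of Atg18a was 202 bp from a TSS of ERR, also on the opposite strand. Thus 3 of the 4 promoter summits lay within 500 bp of a TSS of another gene. Counted once per summit, 23.4% of all promoter summits lay within 500 bp of start sites of at least 2 genes. The 4 summits were instead reached from genes, and a summit near 2 genes can be reached from either, so the values are not directly comparable. Each summit within 2 kb of a member was next given only to the gene with the nearest TSS. Atg1, Atg5, Atg8a and Atg18a kept a peak, and the promoter summits of Atg17 and Atg2 went to their neighbours. Atg3 gained no peak, because its nearest summit lay beyond 2 kb.

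The regions listed for the stronger peaks were narrower. The 5 autophagy gene peaks of ranks 1 to 1000 were 181 to 325 bp wide and the other 6 were 420 bp wide, with no order by score among the 5. The medians over all reproducible peaks were 272 bp in the first 1000 ranks and 420 bp below them. The 6 weaker peaks thus share a single width, equal to the median below rank 1000. Widths are those given by the authors' peak calling and were not read as the extent of binding. The authors' −log10 q-value was the same, 3.89, at 9 of the 11 peaks, from rank 360 to rank 3659. It was lower at the weaker Atg18a peak (3.10) and the weakest Atg1 peak (2.67). The share of all reproducible peaks with 3.89 was not computed, so the count of 9 is not read as a trait of these peaks.

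GC content within 50 bp of the summit ranged from 23.8% to 40.6% over the 11 peaks, with a median of 32.7%. The median over all reproducible summits was 30.7%, and that of windows 400 bp to either side of them was 45.5%. The lowest values were those of the upstream Atg5 peak (23.8%), the intronic Atg5 peak and the 11973 bp peak of Atg1 (both 26.7%) and Atg2 (29.7%). At Atg2 the windows 400 bp away held 45.5% and 54.5%. The weaker Atg18a peak, at 40.6%, and Atg8a, at 39.6%, had more GC at the summit than 90.3% and 88.6% of all reproducible peaks. At Atg8a, and at the peaks of Atg1 at 2444 and 11764 bp, at least 1 flank held less GC than the summit, so the dip was not present at every site. The share of all reproducible peaks with such a flank was not computed.

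**Figure D4:**
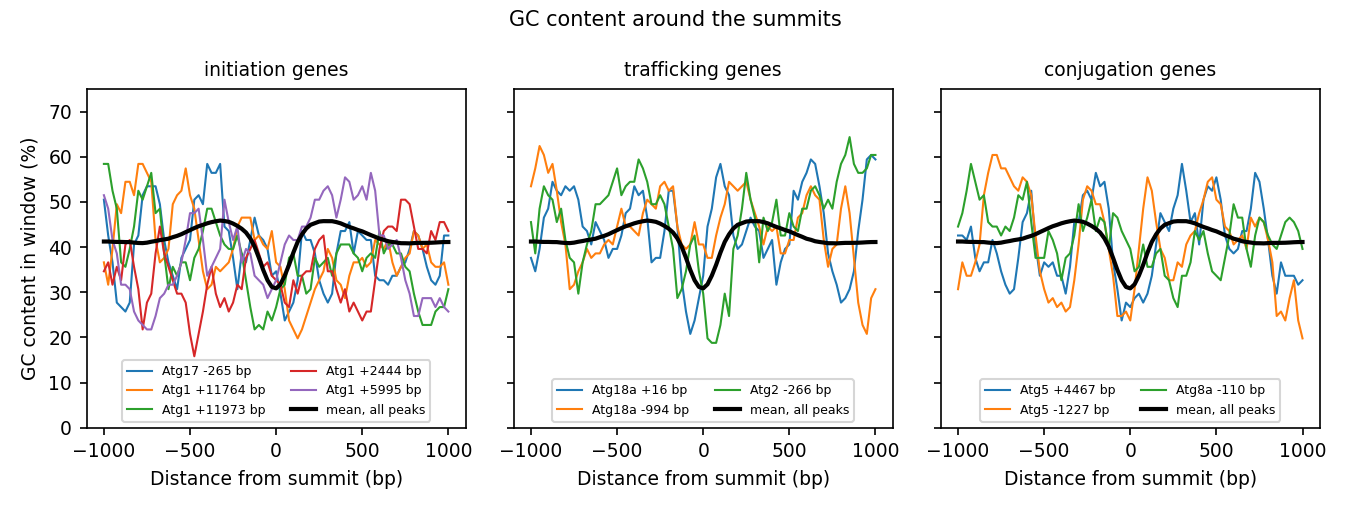
GC content (%) in sliding windows reaching 50 bp to either side, from 1000 bp before to 1000 bp after each summit, in gene direction, in 1 panel for each role, with the mean over all 5056 reproducible peaks in black. The mean dips at the summit, the traces of Atg5 and Atg2 dip with it, and those of Atg8a and the weaker Atg18a peak stay at 39.6% and 40.6% there.

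Short motifs were searched on both strands of the windows reaching 50 bp to either side of a summit. The E-box CANNTG was found in 3 of the 11 windows, at the Atg1 peaks at 2444 and 11764 bp and at the Atg18a promoter, and in 32.2% of all reproducible summit windows. At Atg18a it lies in the untranslated exon part of the window, downstream of the TSS, which is not among the bases shown. Its palindromic form CACGTG, which is known from mammalian lysosomal and autophagy genes as the core of the CLEAR element, was in 0 of 11 windows and in 0.435% of all. The TATA box TATAAA was in 0 of 11 windows and in 25.2% of all. The forkhead site GTAAACA, the GAGA element GAGAG and the DRE TATCGATA were also in 0 of 11, and in 2.53%, 8.19% and 0.218% of all windows. The E-box search includes every CACGTG. These matches describe the letters of the windows only.

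Another 24 autophagy genes included 5 with a reproducible summit within 2 kb, near the 21.8% of all genes. They were Atg101, Vps15, Uvrag, Rubicon and Syx17. None of the 6 further conjugation genes in this list (Atg4a, Atg4b, Atg8b, Atg10, Atg12 and Atg16) had one. Those genes span 593 to 7821 bp. The shares of all genes were 12.3% under 2.5 kb, 19.5% from 2.5 to 5 kb and 30.0% from 5 to 10 kb. The 3 receptor and regulator genes and the 2 trafficking genes of the list had none either. Promoter summits were found at 1 of the 24, against 9.4% of all protein-coding genes.

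That promoter site belonged to Uvrag, a partner of the lipid kinase complex, 106 bp upstream of its TSS with a score of 204.7 at rank 2329. It ranked 1869 and 3237 in replicates 1 and 2 and had no region in replicate 3. Rubicon, known in mammals as an inhibitor of autophagy, had an intronic peak 626 bp downstream of its TSS, with a score of 153.5, and a stronger one past its 3′ end with a score of 582.3. The stronger one lay 142 bp from the TSS of CAH3. All 3 replicates listed both Rubicon peaks.

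The remaining peaks of the 24 genes were each nearer to the TSS of a neighbour. The pair upstream of Atg101, a subunit of the initiation complex, had scores of 254.6 and 131.5 and lay 312 and 112 bp from the TSS of S6KL. The peak upstream of Vps15, the regulatory subunit of the lipid kinase, had a score of 189.9 and lay 339 bp from CG8420. The peak past the 3′ end of Syx17, the SNARE that fuses autophagosomes with lysosomes, had a score of 483.6 at rank 565 and lay 128 bp from the TSS of TP53INP. TP53INP is a relative of the mammalian autophagy regulator DOR. The Syx17 peak was listed in all 3 replicates, and those of Atg101 and Vps15 had no region in replicate 3.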

How the data were processed

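The deposited files are narrowPeak lists of ChIP-seq regions in dm6 and dm3, and the dm3 lists were not used. Per the deposited file descriptions, the candidates of a replicate were derived from its alignment and 1 further file of unstated role, the pooled candidates from the 3 alignments and the same further file, and the reproducible list from these 4 lists by thresholding the irreproducible discovery rate. The names of the aligner and of the peak caller were not given in the sources used here. Both the signal score and the −log10 q-value are the authors' values per region. No region passes the end of its arm in the Release 6 reference (RefSeq). Gene models were those of Ensembl release 115. A summit is the deposited start plus the deposited offset, in 1-based positions.

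Regions overlapped when they shared at least 1 bp, and a top list held a replicate's 5056 strongest regions. The assignment of summits to genes and the overlap count were checked on simulated data. Tables were made with pandas 2.3.3 and numpy 2.4.6 under Python 3.11.15, and plots with matplotlib 3.10.9. The 10 genes, the other lists and the motifs were chosen with earlier results of these data known, so no test was made over them. The genes named are the 10 members, every other listed autophagy gene with a reproducible summit, genes that share a member's summit and genes with the TSS nearest to it. Outside that rule, and chosen after the values were seen, are the genes with the TSS nearest to the other summits described (stck, Nox, CAH3, S6KL, CG8420 and TP53INP) and the further conjugation genes without a summit. All symbols matched a gene, Rubicon when letter case was ignored.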

Additional observations from a re-analysis of the deposited data

How the results depend on the processing

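Of 97 alternative values for 8 counts, 68 stayed within 1.5 times the reported count. The 6 genes with a reproducible summit became 4 to 8 and never moved further. The share of all protein-coding genes that meets each alternative rule was not computed. These counts, and those of the other autophagy genes, therefore show no excess or lack under the alternatives. The 11 peaks became 7 with the gene body only and 5 with the nearest TSS only (still within 2 kb). The peaks became 7 with the 2500 strongest peaks, 20 with all pooled candidates, 6 in replicate 3 alone and 6 with peaks in all 3 top lists. They numbered 6 to 9 when a replicate was left out, with 6 without replicate 1 and 6 without replicate 2. Peaks were not called again for this, and the reproducible list still rests on all 3 replicates. A reproducible peak was kept when the top lists of both other replicates overlapped it. Counting overlapping peaks once, an alternative chosen after seeing the data, gave 10. Promoter summits fell from 4 to 2 genes with a window of 250 bp or the nearest TSS only. Initiation and membrane genes each fell from 2 to 1 with the gene body only or the nearest TSS only. Conjugation genes fell from 2 to 1 in replicate 3 alone and with peaks in all 3 top lists, and lay between 1 and 2 when a replicate was left out. The gene lost without replicate 1 or replicate 2 was Atg8a, which had no region in replicate 3.

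The 5 other autophagy genes became 2 with a 500 bp flank, 9 with 5 kb, 1 with the gene body only, 2 with the nearest TSS only, 10 with all pooled candidates, 8 in replicate 1 alone, 3 in replicate 3 alone, 2 with peaks in all 3 top lists, and 2 to 5 when a replicate was left out. The 6 peaks listed in all replicates became 11 when a region in replicate 3 was not required, and stayed 6 when replicate 1 or 2 was not required. Without counts, the depth behind a missing region is unknown, so a region missing from a list is not shown to be unbound.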
